A study of Solanum lycopersicum with 30 samples.

Results

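Vein-enriched and intervein tissue of watered tomato (Solanum lycopersicum) leaves were compared at T0, the first time point of a drought study, in plants labelled watered. The comparison used 6 of the 30 libraries of the series, chosen by their labels. There were 3 vein and 3 intervein libraries, both from leaf 4 of plants taken 25 days after sowing, and the labels describe each replicate as a separate plant. Leaves were dissected by hand to enrich for veins, so each sample is a bulk mixture of cell types, and neither the cultivar nor the purity of the dissection is stated. The 12 watered libraries of T1 (29 days after sowing) and T2 (the later time point, whose age is not certain from the labels) joined the same model and serve below as separate libraries in which the same genes can be read. All groups are untransformed plants that received water throughout. Genes are given by their tomato gene model identifier (Solyc) with the UniProt entry that the deposited table pairs with it. The table holds no gene names, so names come from that entry or from published tomato identifiers.

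In a leaf, the veins carry xylem, which brings water and minerals, and phloem, which exports sucrose, together with the cambium-like cells and fibres around them. The tissue between the veins is mostly mesophyll, whose chloroplasts fix carbon, covered by the epidermis with its wax. Vascular cells form under directional auxin flow, read out by Aux/IAA repressor genes, and HD-ZIP class III regulators direct xylem formation in Arabidopsis.

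Total counts were 6473895 to 10078557 per T0 library. Of 18743 gene rows with enough counts to test, 1099 were higher in vein (5.86%) and 1363 were lower in vein (7.27%) than in intervein at an adjusted p under 0.05 (edgeR quasi-likelihood test, Benjamini-Hochberg adjustment), together 13.1%. With libraries scaled by total counts alone, the split became 1463 higher and 832 lower, and the fitted log2 fold change of the median gene shifted by 0.34. Of all called genes, 2315 differed by at least 2-fold. The median log2 fold change over all tested genes was 0.06, with positive values meaning higher in vein. One library stood apart from its group. Intervein 3 had far lower photosynthesis transcripts than intervein 1 and 2, and of the 1363 genes called lower in vein, it was the intervein library nearest to vein for 1059. Of the 1099 genes called higher in vein, it was nearest for 402, against 326 and 268 for intervein 1 and 2, with 103 tied. For other genes intervein 3 lay with its group, such as prosystemin (17.0, 44.7 and 10.4 CPM in vein 1 to 3, against 194, 225 and 216 CPM in intervein 1 to 3). The calls of the photosystem, antenna and Rubisco genes are given with and without this library, and so are those of many other named genes. Most other lists are summarised with all T0 libraries only. In bulk tissue, fewer cells of a type and less RNA per cell cannot be told apart.

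Photosynthesis transcripts were lower in vein. The 34 photosystem, antenna, Rubisco small subunit and Rubisco activase genes with a row in the table took 1.68%, 2.28% and 3.57% of the counts in vein 1 to 3, against 22.2%, 19.7% and 4.82% in intervein 1 to 3. The 34 include plastocyanin, which was added after values at T0 were seen. Every intervein library lay above every vein library, but intervein 3 lay close to vein 3. The mean share was 2.51% ± 0.96 in vein and 15.6% ± 9.41 in intervein (SD, n = 3 each; exact two-sided permutation test, p = 0.1, which is the smallest value that 3 against 3 allows, and 0.2 adjusted over 2 tests). The same share was 1.44% to 3.33% in vein T1 and 5.62% to 24.6% in intervein T1, and 1.12% to 1.89% in vein T2 and 4.1% to 6.7% in intervein T2. At each of the 3 times the vein libraries lay below the intervein libraries.

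**Figure D1:**
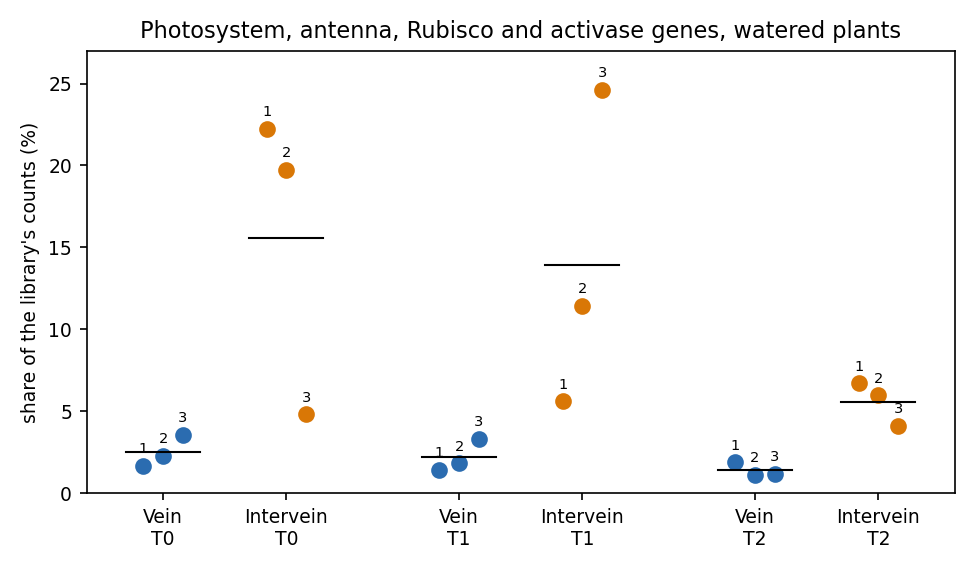
Share of each watered library's counts (%, vertical axis) taken by photosystem, antenna, Rubisco small subunit and Rubisco activase genes, for vein (blue) and intervein (orange) at T0, T1 and T2. Each point is 1 library with its replicate number and the black line is the mean of 3. Intervein T0 3, at 4.82%, lies near the vein libraries, where intervein T0 1 and 2 are at 22.2% and 19.7%.

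All 5 tested Rubisco genes fell in vein. The Rubisco small subunit Solyc02g085950 (P05349), part of the enzyme that fixes carbon dioxide, was at 1795, 4643 and 7999 CPM in vein 1 to 3, against 99858, 75702 and 14189 CPM in intervein 1 to 3. CPM are counts per 1e+06 on library sizes scaled by TMM factors. The groups did not overlap, and the lowest intervein value was that of intervein 3 (log2 fold change -3.72 ± 1.09, approximate standard error, adjusted p = 0.0355). The small subunits Solyc03g034220 (P07179) and Solyc02g063150 (P08706) had log2 fold changes of -3.45 and -3.55. In both of them intervein 3 overlapped the vein libraries. Rubisco activase Solyc10g086580, which keeps Rubisco in its active state, was at 703, 452 and 1826 CPM in vein and 31501, 22075 and 3143 CPM in intervein (log2 fold change -4.25 ± 0.96, adjusted p = 0.00963). The second activase gene, Solyc09g011080, was at 26.7, 24.2 and 30.8 CPM in vein and 820, 971 and 86.0 CPM in intervein (-4.52 ± 0.97, adjusted p = 0.00723), but at T1 and T2 its log2 fold changes were -0.74 and -0.94, with adjusted p of 0.656 and 0.586. Both activase calls held with any 1 library left out. The 3 small subunits lost theirs without vein 1, 2 or 3 or without intervein 1 or 2 (adjusted p up to 0.132), and kept them without intervein 3.

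Of 42 photosystem and antenna identifiers on the list, 29 had a row, all 29 were tested, and 16 were called, all of them lower in vein, where 7.27% of all tested genes were called lower. The other 13 identifiers are not analysed here. Plastocyanin, counted among the 29 and the 16, was added to the list after values at T0 were seen. All 29 fitted log2 fold changes were below 0, from -4.27 to -2.09, with a median of -2.92 where the median of all tested genes was 0.06. The groups did not overlap for only 3 of the 29, against 15% of all tested genes that lay lower in vein with no overlap. PsbR (Solyc07g066310, Q40163), a small protein of photosystem II, was at 1380, 3238 and 2180 CPM in vein and 21344, 29221 and 7888 CPM in intervein (log2 fold change -3.10 ± 0.67, adjusted p = 0.00755). Plastocyanin (Solyc04g082010, P17340), which carries electrons to photosystem I, was at 254, 322 and 462 CPM in vein and 6718, 5619 and 742 CPM in intervein (-3.66 ± 0.83, adjusted p = 0.00991). For these 2 genes every intervein library exceeded every vein library.

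Most other members showed a different arrangement of the libraries. PsbS (Solyc06g060340, P54773), the sensor for heat dissipation of excess light, was at 36.1, 50.6 and 144 CPM in vein and 2632, 1712 and 115 CPM in intervein (log2 fold change -4.27 ± 1.16, adjusted p = 0.0248). The oxygen-evolving complex proteins PsbO (Solyc02g065400, P23322) and PsbQ (Solyc02g079950, Q672Q6) and the photosystem I subunit PsaD (Solyc06g054260, P12372) had log2 fold changes of -2.72, -2.92 and -2.51. In all 4 genes intervein 3 fell within the vein range while intervein 1 and 2 were above it. The antenna protein CP24 has 2 genes here, Solyc01g105030 (P27524), at a log2 fold change of -3.17 with an adjusted p of 0.0425, and Solyc01g105050 (P27525), at -2.90 with an adjusted p of 0.0768. The summed level of the 29 genes was 10062, 16673 and 20570 CPM in vein and 168207, 155638 and 19715 CPM in intervein. Without intervein 3, 27 of the 29 were called lower, with a median log2 fold change of -3.43, and all 5 Rubisco genes remained called. Without intervein 1 or without intervein 2, only 2 of the 29 were called in each case, and without vein 1, 2 and 3 the numbers were 2, 2 and 4.

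Carotenoid synthesis, which supplies the accessory pigments of the photosystems and the precursor of abscisic acid, was lower in vein for 6 of 11 tested genes of 14 on the list, and for none was it called higher, where 7.27% of all tested genes were called lower. The median log2 fold change was -2.22. This list was added after values at T0 were seen, so its calls are not those of a list fixed beforehand. Phytoene synthase PSY1 (Solyc03g031860, P08196), the entry enzyme, was at 27.1, 34.7 and 31.3 CPM in vein and 502, 252 and 144 CPM in intervein (log2 fold change -3.27 ± 0.60, adjusted p = 0.00301). Zeta-carotene desaturase (Solyc01g097810, Q202I0) was at 41.6, 34.5 and 51.7 CPM in vein and 290, 239 and 109 CPM in intervein (-2.32 ± 0.34, adjusted p = 0.00102). Neither gene's groups overlapped, and intervein 3 was at or above 2 times the highest vein library in both. Phytoene desaturase (Solyc03g123760, P28554), carotenoid isomerase (Solyc10g081650, Q8S4R4) and violaxanthin de-epoxidase (Solyc04g050930, C0KZ34), an enzyme of the xanthophyll cycle, had log2 fold changes of -1.77, -1.76 and -3.99. These 5 calls held with any 1 library left out. Zeaxanthin epoxidase (Solyc02g090890), which runs the cycle in the other direction, was also called (-2.42, adjusted p = 0.0407), but not without vein 1, 2 or 3 or without intervein 1 or 2 (adjusted p up to 0.138). At T1 the first 5 of these genes were called again, with log2 fold changes of -3.27 to -1.87. At T2 only zeta-carotene desaturase was called (-1.69, adjusted p = 0.0101), and the median of the list was -0.85.

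Among enzymes of photorespiration and nitrogen assimilation, CAT2 and GS2 were lower in vein, and no member was called higher. Of 3 catalases, which remove the hydrogen peroxide of photorespiration and other oxidations, CAT2 (Solyc02g082760, K4BAE6) fell in vein to 125, 80.7 and 173 CPM, against 2689, 3683 and 1002 CPM in intervein (log2 fold change -4.28 ± 0.64, adjusted p = 0.00113). CAT1 (Solyc12g094620) was at 5203, 3252 and 4820 CPM in vein and 585, 692 and 1903 CPM in intervein. Its groups did not overlap in the opposite direction, yet the difference did not pass the test (2.06 ± 0.76, adjusted p = 0.0891). The chloroplast glutamine synthetase GS2 (Solyc01g080280), which takes up the ammonium released in photorespiration, was at 193, 162 and 644 CPM in vein and 7175, 5297 and 743 CPM in intervein (-3.73 ± 0.83, adjusted p = 0.00903). The cytosolic glutamine synthetase Solyc04g014510 was at 261, 74.6 and 646 CPM in vein and 204, 65.8 and 46.3 CPM in intervein (1.64 ± 0.75, adjusted p = 0.177).

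Of the 7 tested genes for nitrate reduction, glutamine and asparagine synthesis, 3 were called lower in vein, against 7.27% of all tested genes, and none higher. The nitrite reductase Solyc01g108630 was at 25.6, 15.5 and 86.4 CPM in vein and 820, 384 and 50.3 CPM in intervein (log2 fold change -3.29 ± 0.96, adjusted p = 0.0337). The other nitrite reductase gene, Solyc10g050890, was at 284, 197 and 370 CPM in vein and 174, 76.2 and 80.0 CPM in intervein, with no overlap (1.37 ± 0.44, adjusted p = 0.0509). Asparagine synthetase ASN1 (Solyc06g007180), whose product is a transport form of nitrogen, was at 0.602, 0 and 0.222 CPM in vein and 1.42, 14.6 and 211 CPM in intervein. Nearly all of its intervein level came from intervein 3, and without that library, or without vein 1, 2 or 3, the call was lost (adjusted p = 0.0280 with all libraries and up to 0.148 without one). The nitrite reductase call was lost without vein 1 or 2 or intervein 1 or 2 (adjusted p up to 0.141), while the GS2 and CAT2 calls held with any 1 library left out.

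Sucrose metabolism divided between the tissues by enzyme. All 4 sucrose phosphate synthases, which make sucrose for export, had log2 fold changes below 0 and 3 were called lower in vein, against 7.27% of all tested genes. Without intervein 3, 2 were called. These 4 genes were listed after values at T0 were seen, so their calls are not those of a list fixed beforehand. Solyc09g092130 (H9BYP6) was at 3.87, 5.24 and 6.33 CPM in vein and 156, 104 and 35.0 CPM in intervein (log2 fold change -4.25 ± 0.70, adjusted p = 0.00172), the call that held with any 1 library left out. Sucrose synthases, which split sucrose in tissues that consume or load it, were called higher in vein for 2 of 5 tested, against 5.86% of all. SUS1 (Solyc12g009300) was at 66.9, 42.6 and 188 CPM in vein and 0.949, 5.73 and 15.6 CPM in intervein (3.69 ± 0.85, adjusted p = 0.0107). SUS3 (Solyc07g042550, E0Z1D0) was at 154, 317 and 158 CPM in vein and 15.0, 49.3 and 70.6 CPM in intervein (2.22 ± 0.53, adjusted p = 0.0136). Neither sucrose synthase's groups overlapped. Both calls were lost without intervein 2, and that of SUS3 also without vein 2 (adjusted p up to 0.0566). At T1 both were called again, at log2 fold changes of 4.07 and 1.98. At T2 SUS1 was called (3.67, adjusted p = 0.0232) and SUS3 was not (1.65, adjusted p = 0.0778).

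Fructokinase 2 (Solyc06g073190, Q42896), which phosphorylates the fructose that sucrose synthase releases, was at 282, 365 and 312 CPM in vein and 51.3, 76.2 and 102 CPM in intervein (log2 fold change 2.06 ± 0.53, adjusted p = 0.0199, lost without vein 2 or intervein 1 or 2). The sucrose carrier SUT1 (Solyc11g017010), known for loading sucrose into the phloem, was lower in vein. It was at 109, 125 and 98.2 CPM in vein and 295, 332 and 337 CPM in intervein, with little spread within either group (-1.54 ± 0.41, adjusted p = 0.0219). This call was lost without any 1 vein library or without intervein 2 (adjusted p up to 0.0836), and SUT1 had log2 fold changes of -2.27 at T1 and -1.20 at T2 (adjusted p of 0.00554 and 0.0967). None of the 3 tested invertases was called (edgeR; DESeq2 called 2, and 2 had an unadjusted p under 0.05). Of 8 starch genes, 4 were called lower in vein, against 7.27% of all tested genes, and none higher. Granule-bound starch synthase (Solyc08g083320) was at 35.9, 55.0 and 88.6 CPM in vein and 295, 257 and 108 CPM in intervein (-1.88 ± 0.44, adjusted p = 0.0121, lost without vein 1). The beta-amylases Solyc08g007130 and Solyc08g077530, from a family that degrades starch to maltose, had log2 fold changes of -3.29 and -2.14, and both calls were lost without several single libraries (adjusted p up to 0.132).

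Further genes that were lower in vein belong to flowering, wounding, metal and surface functions. Of these, SP5G, nicotianamine synthase and the carbonic anhydrases were chosen after their values were seen. SP5G (Solyc05g053850, Q84XK9), a relative of the florigen gene that represses flowering, was at 3.35, 3.44 and 0 CPM in vein and 230, 311 and 70.6 CPM in intervein (log2 fold change -6.49 ± 1.04, adjusted p = 0.00148). Prosystemin (Solyc05g051750), the precursor of the wound peptide systemin, was at 17.0, 44.7 and 10.4 CPM in vein and 194, 225 and 216 CPM in intervein (-3.14 ± 0.76, adjusted p = 0.0135). The call was lost without vein 1 or vein 3 (adjusted p up to 0.0581). At T1 and T2 prosystemin had log2 fold changes of -3.51 and -4.76 (adjusted p of 0.0119 and 0.00564). Its 3 intervein values at T0 lay close together, all above the vein libraries. Prosystemin was the 1 gene called among 7 tested for jasmonate synthesis, MYC2 and prosystemin, where 7.27% of all tested genes were called lower. The jasmonate enzymes AOC, AOS and OPR3 had log2 fold changes of 0.40, 0.82 and 0.79 with adjusted p of 0.655, 0.176 and 0.209.

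Nicotianamine synthase (Solyc01g100490, Q9XGI7), whose product binds iron and copper in the sap, was at 27.8, 6.87 and 34.9 CPM in vein and 93.3, 118 and 82.9 CPM in intervein (log2 fold change -2.07 ± 0.51, adjusted p = 0.0144). A carbonic anhydrase (Solyc05g005490, Q5NE21) was at 90.9, 95.9 and 117 CPM in vein and 535, 396 and 156 CPM in intervein (-1.84 ± 0.39, adjusted p = 0.00683). A second carbonic anhydrase, Solyc02g086820 (Q5NE20), differed more in intervein 1 and 2 but did not pass the test, at 17.1, 182 and 1082 CPM in vein and 19004, 12830 and 190 CPM in intervein (adjusted p = 0.146). All 8 tested cuticle and wax genes, which act in the epidermis, had log2 fold changes below 0. Of them, 1 was called lower in vein, where 7.27% of all tested genes were. That gene was CD2 (Solyc01g091630), a regulator of cutin, at 43.8, 50.7 and 58.1 CPM in vein and 120, 130 and 178 CPM in intervein (-1.49 ± 0.30, adjusted p = 0.00561). The wax genes CER6 (Solyc02g085870) and CER1 (Solyc03g065250) had log2 fold changes of -1.45 and -1.26 at T0 with adjusted p of 0.0503 and 0.0547, and were called lower in vein at T2 (-2.09 and -2.06). The calls of SP5G, nicotianamine synthase, Q5NE21 and CD2 held with any 1 library left out.

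**Figure D2:**
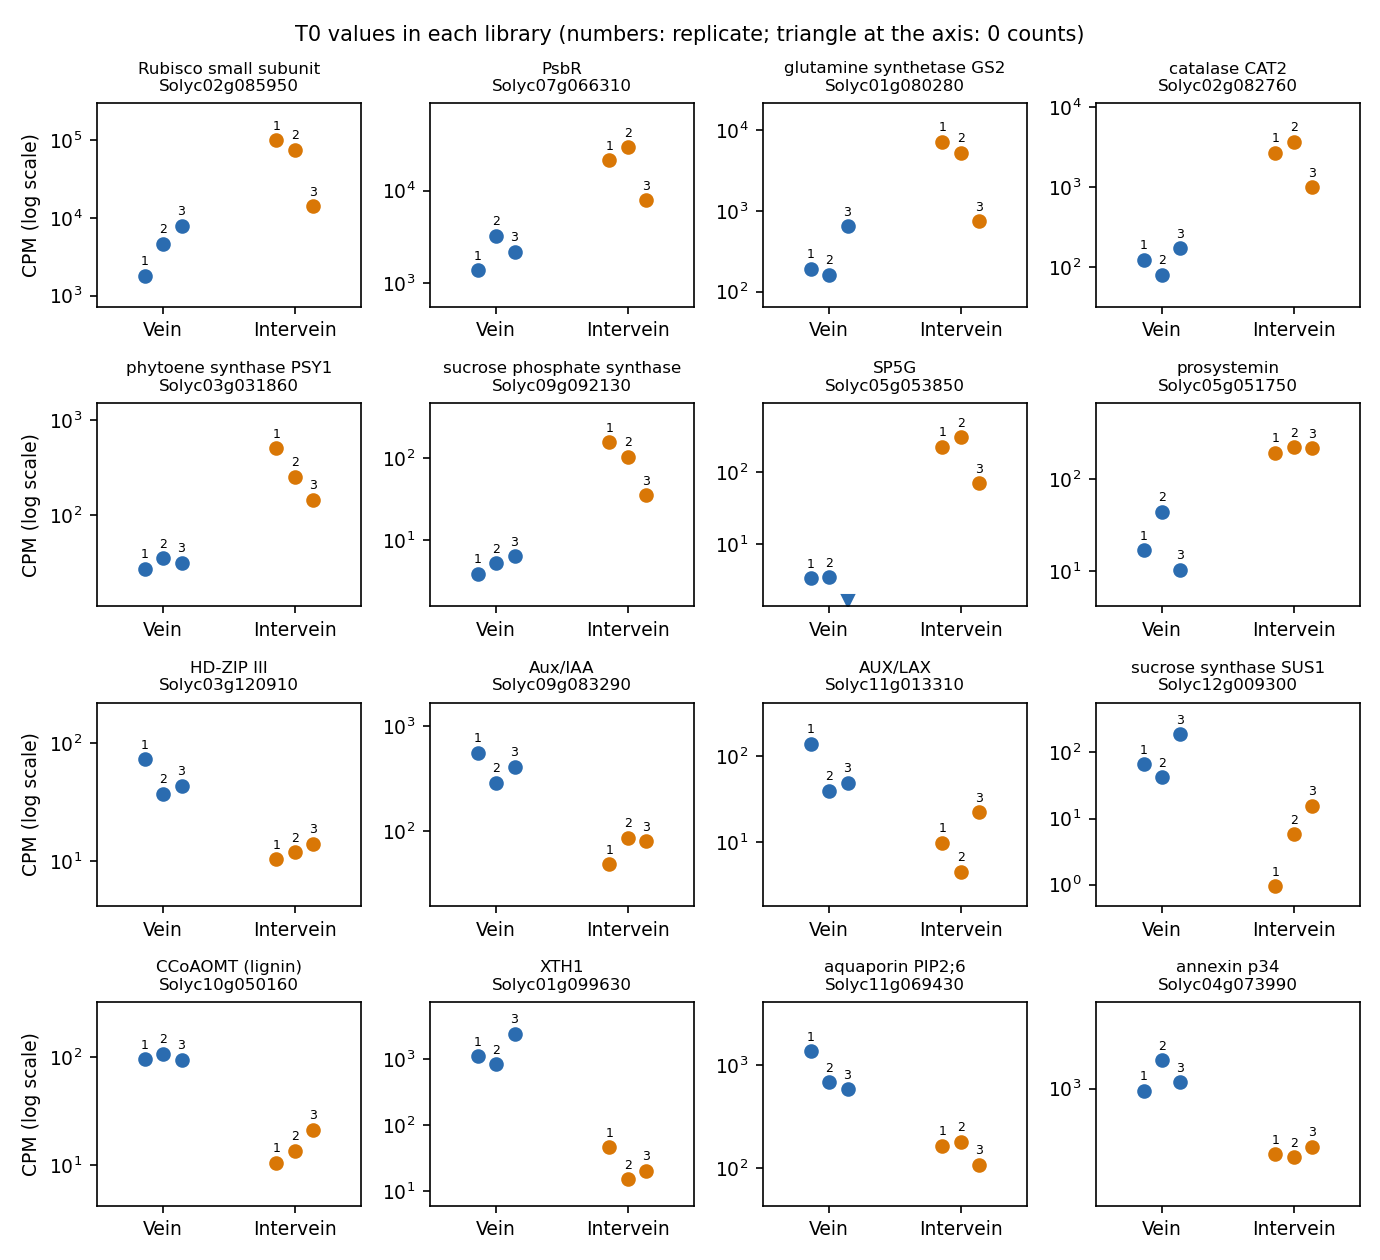
Levels at T0 of 16 genes described in the text, in CPM on a log scale, with vein (blue) left and intervein (orange) right in each panel. Each point is 1 library with its replicate number, and a triangle on the axis marks 0 counts. The upper 8 genes are lower in vein, several of them with intervein 3 nearest to vein (Rubisco small subunit, 14189 CPM), and prosystemin without such a gap. The lower 8 genes are higher in vein.

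Some regulators of vascular and meristem identity were higher in vein, with 1 of 4 KNOX and 3 of 6 HD-ZIP III genes called, where 5.86% of all tested genes were. All 4 KNOX genes, which keep cells in a meristematic state, had 0 counts in the 3 intervein libraries. They passed the count filter through vein libraries, so a fitted log2 fold change above 0 was fixed in advance for all 4. Their shared direction is therefore no evidence of its own. TKN4 (Solyc01g100510, Q84ZW2) was at 13.2, 8.18 and 5.78 CPM in vein, at least 62.1-fold higher than in intervein against a floor of 3 counts over the group (adjusted p = 0.00115), and at least 31.2-fold higher without intervein 3. It was called again at T1 and T2 (adjusted p of 0.00239 and 0.00254). The other 3 KNOX genes were at or below 2.67 CPM in every vein library and did not pass the test. All 6 HD-ZIP III genes had log2 fold changes above 0, with a median of 1.40. Solyc03g120910 was at 73.1, 37.2 and 43.7 CPM in vein and 10.4, 11.96 and 14.1 CPM in intervein (log2 fold change 2.07 ± 0.30, adjusted p = 0.000838). Solyc12g044410 was at 106, 92.8 and 152 CPM in vein and 31.6, 17.2 and 16.2 CPM in intervein (2.44 ± 0.52, adjusted p = 0.00699). For both, intervein 3 was no closer to vein than a factor of 2, and the calls held with any 1 library left out. Solyc02g024070 was also called (1.85, adjusted p = 0.0211), but not without vein 3 or intervein 1 or 2 (adjusted p up to 0.107). At T1, 5 of the 6 were called higher in vein, and at T2 4 of the 6, where 4.04% and 3.40% of all tested genes were.

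Some auxin response and uptake genes were higher in vein. Of 18 tested Aux/IAA genes, which encode repressors that auxin both induces and degrades, 8 were called higher, where 5.86% of all tested genes were, and none lower, with a median log2 fold change of 1.26 and 3 values below 0. The Aux/IAA list was added after values at T0 were seen, so these calls are not those of a list fixed beforehand. At T1, 2 of the 18 were called higher in vein (4.04% of all tested genes), and at T2 4 of them (3.40% of all). The summed Aux/IAA level was 1908, 1705 and 1734 CPM in vein and 632, 699 and 884 CPM in intervein. Solyc09g083290 (G9HPW2) was at 555, 287 and 408 CPM in vein and 48.2, 86.2 and 80.0 CPM in intervein (log2 fold change 2.54 ± 0.32, adjusted p = 0.000404). Solyc03g120500 (G9HPX1) was at 284, 167 and 49.4 CPM in vein and 13.8, 28.0 and 27.7 CPM in intervein (2.84 ± 0.55, adjusted p = 0.00392). Solyc06g008590 (G9HPW5) was at 82.4, 175 and 139 CPM in vein and 0, 0.983 and 12.5 CPM in intervein (4.78 ± 1.04, adjusted p = 0.00764). No library of these 3 genes crossed to the other group, and their calls held with any 1 library left out. The other 5 calls, with log2 fold changes of 0.78 to 3.87, were each lost without 3 to 5 of the 6 single libraries (adjusted p up to 0.192). The count of called Aux/IAA genes was 3 without intervein 1 or 2, 4 without vein 1, and 5 to 6 without the remaining single libraries.

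Among carriers of auxin, 2 of 5 AUX/LAX influx carriers were called higher in vein, where 5.86% of all tested genes were. Without intervein 3, 1 of the 5 was called. DESeq2 called 3 of the 5, and 4 had an unadjusted p under 0.05 in edgeR. The AUX/LAX list was added after values at T0 were seen, so its calls are not those of a list fixed beforehand. None of 8 PIN efflux carriers was called by edgeR (DESeq2 called 0, and 0 had an unadjusted p under 0.05 in edgeR). The median log2 fold change was 1.24 for AUX/LAX, with all 5 values above 0, and 1.03 for PIN, with 7 of 8 above 0. Among the PIN values above 0, those of Solyc01g068410 and Solyc06g059730 rest on counts in vein 3 alone, with none in intervein. Their direction is therefore no evidence of its own. Influx and efflux carriers were not tested against each other. The influx carrier Solyc11g013310 (F8SS64) was at 138, 39.8 and 49.2 CPM in vein and 9.97, 4.59 and 22.4 CPM in intervein (log2 fold change 2.61 ± 0.58, adjusted p = 0.00848), and was called again at T1 (2.66, adjusted p = 0.0123) but not at T2 (1.92, adjusted p = 0.0570). Solyc09g014380 (F8SS62) was at 112, 43.7 and 68.8 CPM in vein and 39.9, 25.7 and 30.0 CPM in intervein (1.24 ± 0.36, adjusted p = 0.0357), a call that was lost without vein 1 or 3 or any intervein library (adjusted p up to 0.181). The PIN gene Solyc05g008060 (E5KGD4), was at 90.4, 55.3 and 50.5 CPM in vein and 45.3, 54.2 and 59.4 CPM in intervein, and its groups overlapped (0.30 ± 0.33, adjusted p = 0.625).

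Ethylene synthesis and perception genes gave 4 calls at T0. In ethylene synthesis, the oxidase ACO5 (Solyc07g026650, Q6A1K7), which makes ethylene from ACC, was at 28.5, 4.09 and 21.7 CPM in vein and 0, 0 and 0.391 CPM in intervein (adjusted p = 0.00264). Its 551 vein and 4 intervein counts gave a ratio of 106 (95% exact counting interval 41.1 to 390.0). It was the 1 call among 6 tested genes for ethylene synthesis, where 13.1% of all tested genes were called in either direction. ACO5 was called again at T1 and T2 (adjusted p of 0.00178 and 0.00215). ACO1 (Solyc07g049530, P05116) was at 55.3, 336 and 103 CPM in vein and 467, 370 and 958 CPM in intervein, with a log2 fold change of -1.86 that did not pass the test (adjusted p = 0.162). Of 7 ethylene receptors, 2 were called higher in vein and 1 lower, where 5.86% and 7.27% of all tested genes were. The receptor list was added after values at T0 were seen, so its calls are not those of a list fixed beforehand. The receptor ETR4 (Solyc06g053710, Q9XET8) was at 90.6, 102 and 119 CPM in vein and 10.9, 9.01 and 51.7 CPM in intervein (2.11 ± 0.60, adjusted p = 0.0305). The receptor Solyc07g056580 (Q5QG25) was at 4.38, 6.06 and 4.44 CPM in vein and 13.3, 12.8 and 9.18 CPM in intervein (-1.24 ± 0.38, adjusted p = 0.0411). The calls of ETR4 and Solyc07g056580 were lost without any 1 vein library or without intervein 1 or 2 (adjusted p up to 0.128). The other receptor called higher, Solyc05g055070, lost its call without vein 3 or intervein 1 or 2 (adjusted p up to 0.111).

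For abscisic acid, 1 of 7 tested genes was called, the zeaxanthin epoxidase described above, where 13.1% of all tested genes were called. NCED1 (Solyc07g056570, O24023), the rate-limiting step of that pathway, was at 5.67, 35.8 and 69.8 CPM in vein and 28.2, 48.3 and 66.9 CPM in intervein, with overlapping groups (log2 fold change -0.37 ± 0.60, adjusted p = 0.762). None of 7 gibberellin synthesis and inactivation genes was called by edgeR, DESeq2 called 1, and 1 had an unadjusted p under 0.05. That list had the second highest median log2 fold change of all lists, 2.24, with 6 of 7 values above 0. Among its members, Solyc07g056670 (A0FK57) was at 22.7, 11.3 and 13.1 CPM in vein and 0, 1.15 and 2.05 CPM in intervein (3.77 ± 1.26, adjusted p = 0.0661), and was called at T2 (adjusted p = 0.0288). All 7 clock genes had log2 fold changes below 0, from -3.57 to -0.56, and none was called (edgeR; DESeq2 called 1, and 2 had an unadjusted p under 0.05). The median of the clock list was -1.24 at T0, -0.54 at T1 and 0.00 at T2.

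Several cell wall enzymes were higher in vein. Xyloglucan endotransglucosylases cut and rejoin hemicellulose chains as walls expand or thicken. XTH1 (Solyc01g099630, Q40144) was at 1101, 838 and 2411 CPM in vein and 46.3, 15.2 and 20.5 CPM in intervein (log2 fold change 5.73 ± 1.04, adjusted p = 0.00288). Another member of that family, Solyc07g009380 (Q9FZ05), was at 1680, 334 and 770 CPM in vein and 33.7, 33.1 and 60.0 CPM in intervein (4.45 ± 0.72, adjusted p = 0.00154). Beta-galactosidase TBG6 (Solyc02g084720, Q9LLS9), which trims galactose from wall polymers, was at 243, 200 and 239 CPM in vein and 34.9, 21.9 and 23.0 CPM in intervein (3.10 ± 0.68, adjusted p = 0.00838). Expansin 5 (Solyc02g088100, Q9ZP31), which loosens walls, was at 320, 99.5 and 436 CPM in vein and 39.2, 16.5 and 16.5 CPM in intervein (3.57 ± 0.76, adjusted p = 0.00684). It was the 1 expansin called of 8 tested, where 5.86% of all tested genes were called higher. In these 4 genes every vein library exceeded every intervein library by more than 2 times, and the calls held with any 1 library left out. At T1 and T2 expansin 5 had log2 fold changes of 1.94 and 1.09 (adjusted p of 0.0967 and 0.396), while both xyloglucan enzymes and TBG6 were called at both times. The named wall genes other than expansin 5 were chosen after their values were seen.

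Of 16 tested phenylpropanoid and lignin genes, which supply the polymer of xylem and fibre walls, 2 were called higher in vein, where 5.86% of all tested genes were, and none lower. Both encode caffeoyl-CoA O-methyltransferases, which methylate lignin precursors. Solyc10g050160 was at 96.1, 109 and 95.0 CPM in vein and 10.4, 13.6 and 21.2 CPM in intervein (log2 fold change 2.72 ± 0.56, adjusted p = 0.00618). Solyc01g107910 was at 78.7, 147 and 84.3 CPM in vein and 26.1, 31.4 and 27.8 CPM in intervein (1.86 ± 0.44, adjusted p = 0.0119, and 0.0575 without intervein 1). For both genes every vein library exceeded every intervein library, and both were called again at T1 and T2. Phenylalanine ammonia-lyase Solyc09g007910, at the entry of the pathway, was at 852, 2556 and 2203 CPM in vein and 1162, 510 and 641 CPM in intervein (1.28 ± 0.44, adjusted p = 0.0684). With libraries scaled by total counts, 6 of the 16 were called higher.

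Aquaporins, the water channels of the plasma membrane (PIP) and vacuole (TIP), were called higher in vein for 3 of 12 and 1 of 8 tested genes, where 5.86% of all tested genes were, and lower for none. PIP2;6 (Solyc11g069430) was at 1348, 676 and 581 CPM in vein and 164, 179 and 107 CPM in intervein (log2 fold change 2.54 ± 0.54, adjusted p = 0.00703), and was called again at T1 (2.33, adjusted p = 0.0144) but not at T2 (0.97, adjusted p = 0.294). PIP1;2 (Solyc01g094690) was at 70.9, 117 and 170 CPM in vein and 33.7, 15.2 and 11.9 CPM in intervein (2.56 ± 0.65, adjusted p = 0.0180). TIP4;1 (Solyc08g066840) was at 208, 122 and 106 CPM in vein and 54.1, 31.4 and 46.9 CPM in intervein (1.72 ± 0.48, adjusted p = 0.0293). The PIP gene Solyc08g081190 (Q08451) was at 886, 394 and 633 CPM in vein and 620, 466 and 384 CPM in intervein, and its groups overlapped (0.38 ± 0.38, adjusted p = 0.593). The PIP2;6 call held with any 1 library left out. That of PIP1;2 was lost without vein 3 or intervein 2 or 3, and that of TIP4;1 without vein 1 or any intervein library (adjusted p up to 0.137). The third PIP call, Solyc06g011350 (E7EC27), at 13.9, 15.2 and 17.7 CPM in vein and 1.19, 0 and 4.59 CPM in intervein (2.92 ± 0.91, adjusted p = 0.0458), was lost without any 1 vein library or without intervein 1 or 2 (adjusted p up to 0.153).

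Several enzymes and binding proteins of primary metabolism and signalling were also higher in vein. These were recognised by their UniProt entry after their values were seen. Annexin p34 (Solyc04g073990, O81536), a calcium-dependent membrane-binding protein, was at 964, 1708 and 1130 CPM in vein and 290, 274 and 333 CPM in intervein (log2 fold change 2.08 ± 0.32, adjusted p = 0.00113). S-adenosylmethionine synthase (Solyc09g008280, P43282), which makes the methyl donor used in lignin synthesis and the precursor of ethylene, was at 1214, 908 and 1769 CPM in vein and 434, 491 and 300.4 CPM in intervein (1.67 ± 0.51, adjusted p = 0.0418). Enolase (Solyc09g009020, P26300), a glycolytic enzyme, was at 447, 452 and 703 CPM in vein and 287, 220 and 173 CPM in intervein (1.24 ± 0.30, adjusted p = 0.0141). The groups did not overlap for any of these 3 genes. Formate dehydrogenase (Solyc02g086880, Q5NE18) was at 507, 283 and 143 CPM in vein and 11.6, 34.2 and 75.5 CPM in intervein (2.94 ± 0.73, adjusted p = 0.0158). Subtilisin-like protease SBT3 (Solyc01g087850, O82777) was at 171, 73.5 and 155 CPM in vein and 16.9, 9.83 and 23.9 CPM in intervein (2.98 ± 0.79, adjusted p = 0.0216). Of these 5, the annexin kept its call with any 1 library left out, and the other 4 lost theirs without 2 to 5 of the 6 single libraries (adjusted p up to 0.136).

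**Figure D3:**
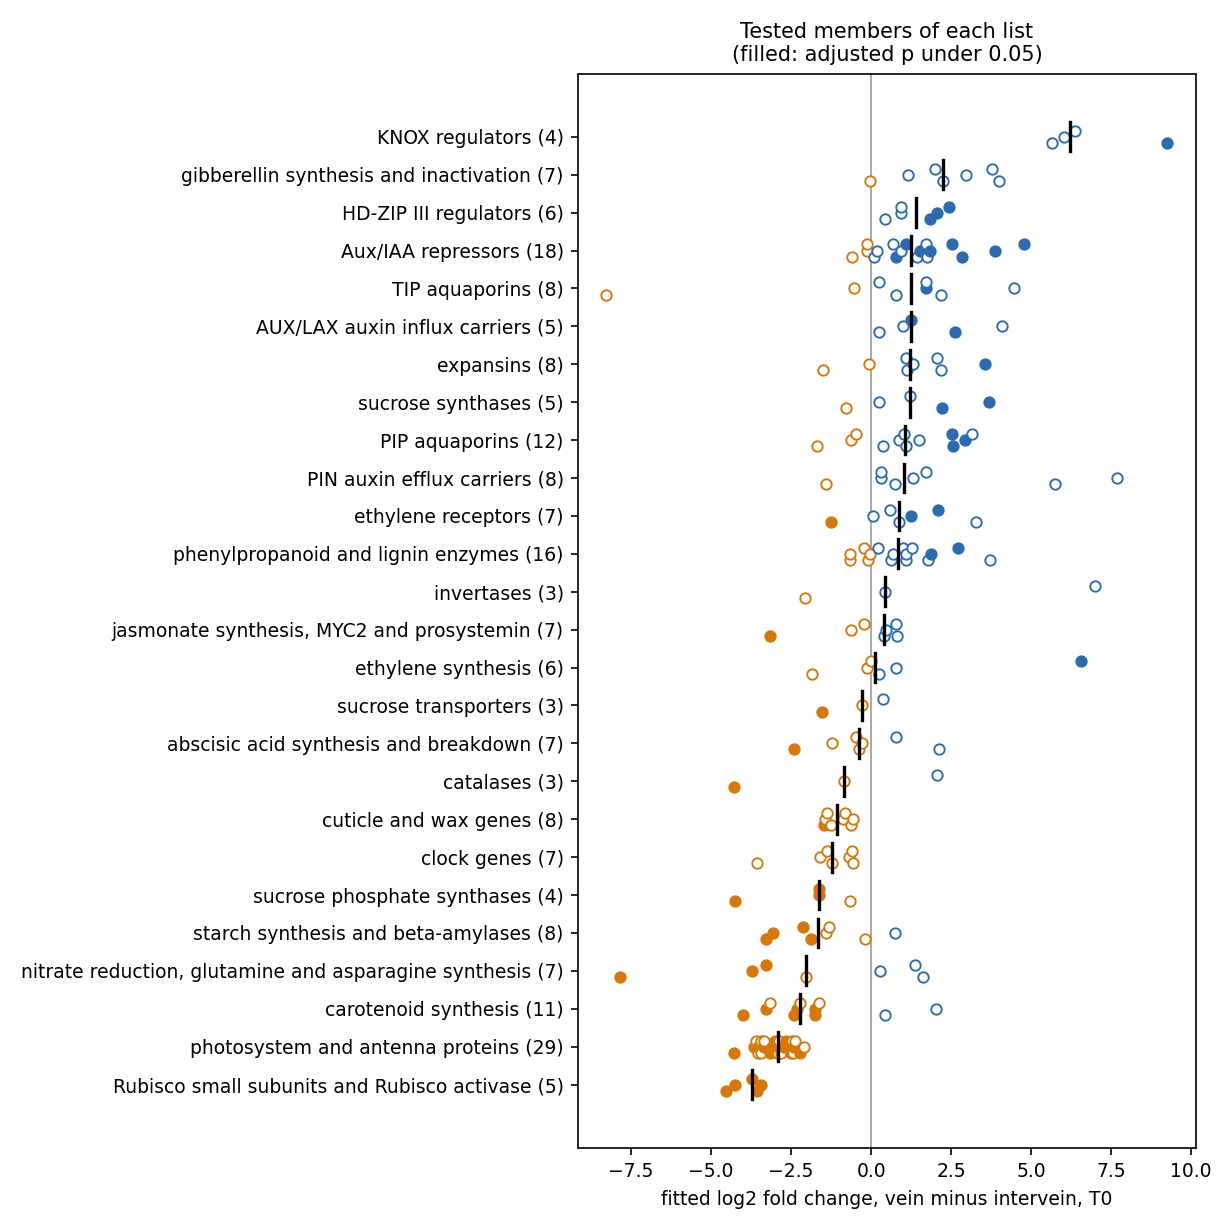
Fitted log2 fold changes at T0 (horizontal axis, vein minus intervein) of the tested members of 26 gene lists, with the number tested in parentheses. Each point is 1 gene, blue above 0 and orange below 0, filled where the adjusted p is under 0.05, and the black bar is the median of the list. Lists run from KNOX regulators at the top, whose fitted values are set by 0 counts in intervein, to the Rubisco genes at the bottom, with a median of -3.72.

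Genes of largest fold change mostly had no counts in one tissue. Of the 15 genes with the largest increase under the fixed rule (adjusted p under 0.05, at least 5 CPM on average, no overlap), 14 had 0 counts in all 3 intervein libraries, and of the 15 with the largest decrease, 9 had 0 counts in all 3 vein libraries. Their folds were at least 91.0 to 929.9 in the first set and at least 96.5 to 402.8 in the second, against a floor of 3 counts over the group. Ranking by fitted fold favours genes with 0 counts in one tissue. For such genes, the minimum of 5 CPM on average fixes a large bound in advance. The absence of counts and the size of the bounds are therefore no evidence of their own. The bounds of the first set were 45.7 to 466.8 without intervein 3 and reached down to 24.3 without vein 3, and those of the second set were 54.5 to 227.6 without vein 1 and 64.0 to 267.2 without vein 3. With 1 library left out, 1 of the first 15 and 5 of the second 15 lost their call in at least 1 case (adjusted p up to 0.148). The gene with the bound of 402.8 had an adjusted p of 0.0498 and lost its call without any 1 of the 6 libraries. ASN1 (Solyc06g007180), described above, was among the 15 largest decreases. For the other genes of these 2 sets no function is given here. Solyc07g007750 (B1N678), first in the vein set, was at 121, 163 and 123 CPM in vein and had 0 counts in intervein. In the T1 and T2 libraries its log2 fold changes were 6.40 and 5.88. Among the 10 called genes of highest mean CPM in each direction, Solyc09g098540 was at 2433, 1868 and 2565 CPM in vein and 257, 247 and 240.2 CPM in intervein (log2 fold change 3.21 ± 0.38, adjusted p = 0.000253). Solyc07g056540 was at 236, 623 and 580 CPM in vein and 9368, 10510 and 2072 CPM in intervein (-3.93 ± 0.71, adjusted p = 0.00271).

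The tissue difference at T0 was then read in the watered libraries of T1 and T2. There, 9.68% of all tested genes were called at T1 (4.04% higher and 5.63% lower in vein) and 5.66% at T2 (3.40% higher and 2.26% lower). Of the 1099 genes called higher in vein at T0, 534 (48.6%) were called higher at T1 and 383 (34.9%) at T2, and these made up 70.4% of the T1 calls and 60.0% of the T2 calls in that direction. Of the 1363 called lower, 840 (61.6%) were called lower at T1 and 321 (23.6%) at T2, or 79.5% and 75.9% of the later calls. None was called in the opposite direction at either time. Of the 68 list members called at T0, 42 were called with the same sign at T1 and 21 at T2, and the fitted sign was the same for all 68 at T1 and for 64 at T2. Among all genes called at T0, the sign was the same at T1 for 99.3% of those higher and 99.6% of those lower in vein. At T2 these shares were 95.9% and 96.6%, so keeping the sign was not particular to the list members. For the photosystem and antenna list, 10 of 29 genes were called lower at T1 and 1 at T2, with medians of -2.63 and -1.33. A test of the T0 difference minus the mean of the T1 and T2 differences called 0 genes (edgeR; DESeq2 called 24, and 837 passed an unadjusted p under 0.05).

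**Figure D4:**
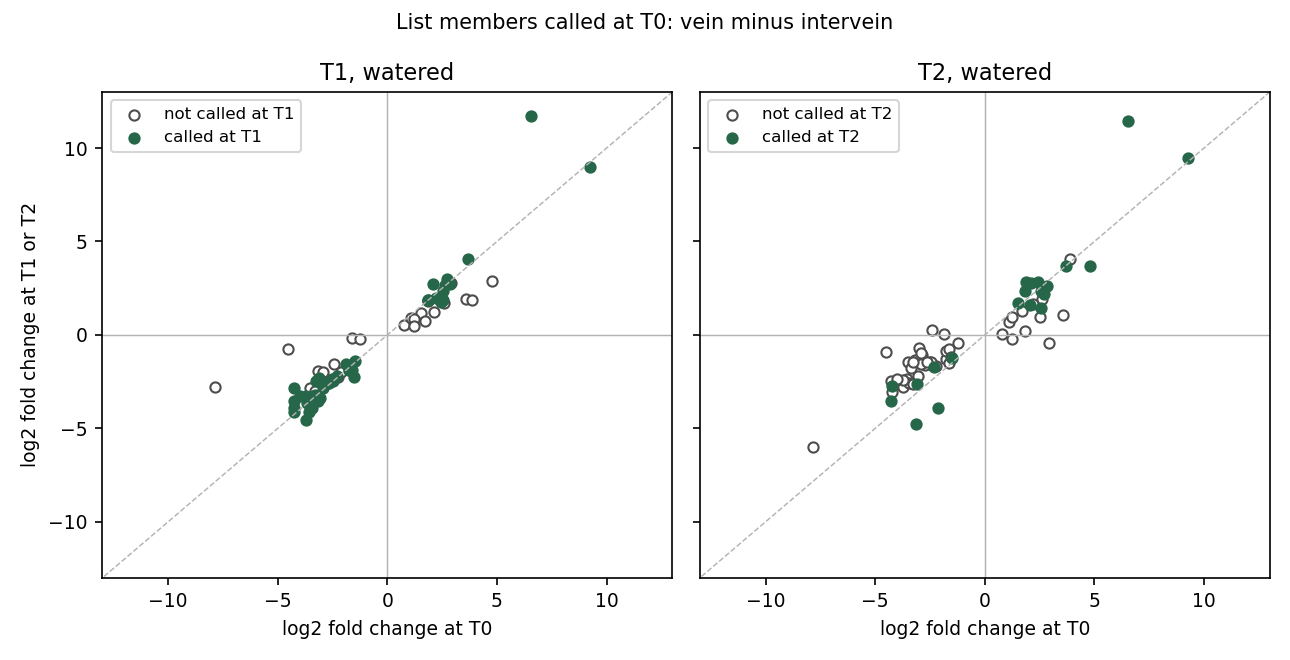
Log2 fold changes (vein minus intervein) of the 68 list members called at T0 (horizontal axis), against the same quantity in the watered libraries of T1 (left) and T2 (right). Each point is 1 gene, filled where it was called at the later time, and the dashed line marks equal values. At T1 all 68 points share the sign of T0, and at T2 64 do, which is near the shares of all genes called at T0.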

How the data were processed

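Per the file headers, the authors deposited raw whole-number read counts for each gene in each library. It has 35596 rows, of which 34429 are Solyc gene models and 1167 carry ENSRNA (non-coding RNA) identifiers, and 34323 rows have a UniProt entry. The submitters' processing notes name HISAT2 (2.1.0), StringTie (1.3.3b), DESeq2 (1.20.0) and FastQC (0.11.5). Per the labels' protocols, libraries were stranded mRNA libraries read as single reads of 75 nt. Sources used here give neither the genome build nor how multiply mapped reads were counted, so values of near-identical family members (antenna, Rubisco, Aux/IAA) are uncertain. Fold changes and tests that the authors deposited for drought were not used.

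Counts were tested with edgeR 4.0.16 in R 4.3.3: filterByExpr, TMM factors, and 1 quasi-likelihood fit over the 18 watered libraries with 1 coefficient per group (12 residual degrees of freedom), two-sided, with Benjamini-Hochberg adjustment over 18743 tested rows and calls at an adjusted p under 0.05. TMM factors were 1.16, 0.945 and 1.00 in vein T0 1 to 3 and 0.607, 0.678 and 1.17 in intervein T0 1 to 3. Drought and recovered libraries were left out of the fit because earlier results put some apart from their tissue label. Standard errors of log2 fold changes were approximated as the fold change over the square root of the F statistic. Bounds use a floor of 3 counts over a group, and floors and counting intervals cover counting error only. Single values per library were compared by exact permutation tests. In simulated counts, both T0 tissues were given the average of their real means, and spread followed the fitted trend. Changes were planted only in genes of at least 5 CPM. The fit called 78% of 100 genes changed by a log2 fold change of 3 and 1% of 100 changed by 1, with 1 false call among 18057 unchanged genes. Smaller differences thus mostly went uncalled under these settings. The settings leave out the spread of single genes and of single libraries such as intervein 3. Alternatives were DESeq2 1.42.0, RLE factors, total counts only, no filter, no ENSRNA rows, the 6 T0 libraries alone, all 30 libraries, a replicate block, and each T0 library left out.

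The gene lists were chosen with earlier results of these data known. The carotenoid, sucrose phosphate synthase, Aux/IAA, AUX/LAX and ethylene receptor lists were added after values at T0 were seen. So was plastocyanin, as a member of the photosystem and antenna list. Beside list members, the rule for named genes took, among called genes of at least 5 CPM with no overlap between groups, the 15 largest and 15 smallest fold changes and the 10 of highest mean CPM in each direction. Genes outside both (SP5G, nicotianamine synthase, carbonic anhydrases, wall and primary metabolism genes, fructokinase 2) were chosen after their values were seen. None of the identifiers matched the reference table (assembly SLM_r2.1). No sequences were used.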

Additional observations from a re-analysis of the deposited data

How the results depend on the processing

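No called gene named above or picked by the rule changed sign under any alternative that gave it an adjusted p. ASN1 had none in the 6 T0 libraries, with or without the block, and 1 gene had none under DESeq2. Of 125 such genes, 124 kept their call under DESeq2, 125 without ENSRNA rows, 122 with RLE factors, 119 without a filter, 110 with total counts only, 83 with all 30 libraries and 70 in the 6 T0 libraries alone. The counts of genes higher and lower in vein were 1099 and 1363. They became 699 and 852 in the 6 T0 libraries alone, 555 higher with all 30 libraries, 1801 and 1960 under DESeq2, and 832 lower with total counts only. Leaving out 1 T0 library gave 484 to 849 higher and 789 to 1445 lower. The interaction called 24 genes under DESeq2. Genes called higher at both T0 and T1 (534) were 156 with all 30 libraries and 909 under DESeq2, and 334 to 486 without 1 library. Those lower at both (840) were 441, 1343 and, with total counts only, 521, and 523 to 965 without 1 library. Genes called at both T0 and T2 were 2 higher and 8 lower with all 30 libraries, 700 and 770 under DESeq2, and 232 to 355 higher and 206 to 405 lower without 1 library. For these counts the cause was not tested, except that fits without a library hold fewer samples. The photosynthesis share differed by -18.5 to -9.77 percentage points without 1 library (-13.1 with all), and the ENSRNA share by 0.206 to 4.20 (2.73 with all).

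Vein and intervein share replicate numbers. Fitting the replicate block in the 6 T0 libraries called 0 higher and 0 lower. That fit leaves few residual degrees of freedom, so its lack of calls does not decide whether the samples are paired. The deviations of same-numbered libraries correlated at -0.18, 0.15 and -0.13 for numbers 1 to 3, and only number 2 correlated best with its own number. The numbers were not taken to pair the samples. With so few libraries per tissue, these correlations cannot exclude that same-numbered samples share a plant.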

Other observations

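The genes called at T1 and T2, in the fit that also holds the T0 libraries, were read in the 6 T0 libraries. For the 758 vein-higher and the 1056 vein-lower genes of T1, the median log2(CPM + 0.5) of the first set minus that of the second was 1.32, 0.91 and 0.76 in vein T0 1 to 3, and -3.48, -3.26 and -1.94 in intervein T0 1 to 3. With the 638 and 423 genes called at T2, the differences were 0.96, 0.68 and 0.95 in vein T0 and -3.51, -3.53 and -2.71 in intervein T0. Intervein T0 3 therefore lay on the intervein side by both sets of genes, nearer to vein than the other intervein libraries.

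Rows with ENSRNA identifiers took 3.5%, 10.7% and 2.71% of the counts in vein T0 1 to 3, and 2.6%, 2.36% and 3.74% in intervein T0 1 to 3. Vein 2 was the highest of the 6, and the groups overlapped (exact two-sided permutation test, p = 0.4). Their part in the gene results was not tested beyond the fit without these rows.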
